A study of Mus musculus with 24 samples.

Results

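The 34 genes described here mark Kupffer cells, the resident macrophages of the liver, and macrophages and monocytes more widely. They were taken by exact match of the gene name on the array, and 33 of the 34 matched, among 21559 gene names in the normalised table. The gene that did not match, Emr1, is an older symbol of Adgre1 (F4/80), which has 2 probes on the array and is given separately. The 33 genes had 59 probes on the array, of which 50 had values in the table of 32176 probes, and each gene was read from its brightest probe there.

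Livers came from 24 male C57Bl6J mice, bred as the F3 generation within 2 lineages, and each liver was measured on 1 one-colour array (Cy3). The reference group (9 mice) was of the control lineage, whose growing diet had been supplemented with sunflower oil rich in oleic acid over the generations, and these mice were then fed a low-fat diet. HFoleic mice (8) were of the same control lineage and were fed a diet high in fat and sucrose. HFepa mice (7) were fed that same diet and were of the omega 3 lineage, whose growing diet had held fish oil rich in eicosapentaenoic acid (EPA). All mice were killed while fasting, and none carried a transgene or a deletion according to the labels. A low-fat group of the omega 3 lineage was not analysed here, so that diet and lineage cannot be told apart in the difference between HFepa and reference mice. Their age is not given in the sources used here.

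Kupffer cells line the liver sinusoids and take up particles, bacteria, dying cells and old red cells from the blood. They are told from other macrophages by surface proteins such as the lectin Clec4f, the phosphatidylserine receptor Timd4 and the haemoglobin scavenger receptor Cd163. Monocytes that enter the liver carry the receptors Ccr2 and Cx3cr1, and in fatty liver and injury macrophages with Trem2, Gpnmb and Spp1 are known to form near lipid and scar.

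Signals are log2 values after quantile normalisation between arrays, and 1 unit is a 2-fold difference. Between 53.0% and 62.5% of the spots of an array were well above background, 2 mice of a group correlated across probes at 0.975 to 0.996, and the residual SD of probes had a median of 0.187. Alb (albumin), the defining transcript of hepatocytes, lay between 18.16 and 18.39 in all 24 mice. It lies among the brightest probes, where quantile normalisation gives all arrays nearly the same values. Its evenness therefore does not measure hepatocyte content. Of 6 hepatocyte markers only Cps1 differed from reference at a limma adjusted p under 0.05, in HFoleic. Cps1 differed by -0.89 ± 0.15 there (limma adjusted p = 0.0018) and by -0.47 ± 0.16 in HFepa (adjusted p = 0.19). The brightest probe was well above background in every mouse for 31 of the 33 genes. Ccr2 was so in 23 of the 24 mice and Cx3cr1 in 21. The brightest probes had 3 empty values in the table, 1 each for Fcgr1, Tlr4 and Il1b.

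Reference replicate 5 stood apart from the other 23 mice. On the first principal component of all probes, with 18.2% of the variance, it lay at -80.7, reference replicate 4 at -30.0 and the other reference mice between -5.98 and 7.39. By brightest probe, it had the highest signal of all 24 mice for 15 of the 33 genes and the lowest for 5. The 5 include Ptprc, whose other probes in the table were each the highest of all in that mouse. They also include Itgam, whose other probe lay within the reference range there. Group differences are therefore given with and without that mouse.

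**Figure D1:**
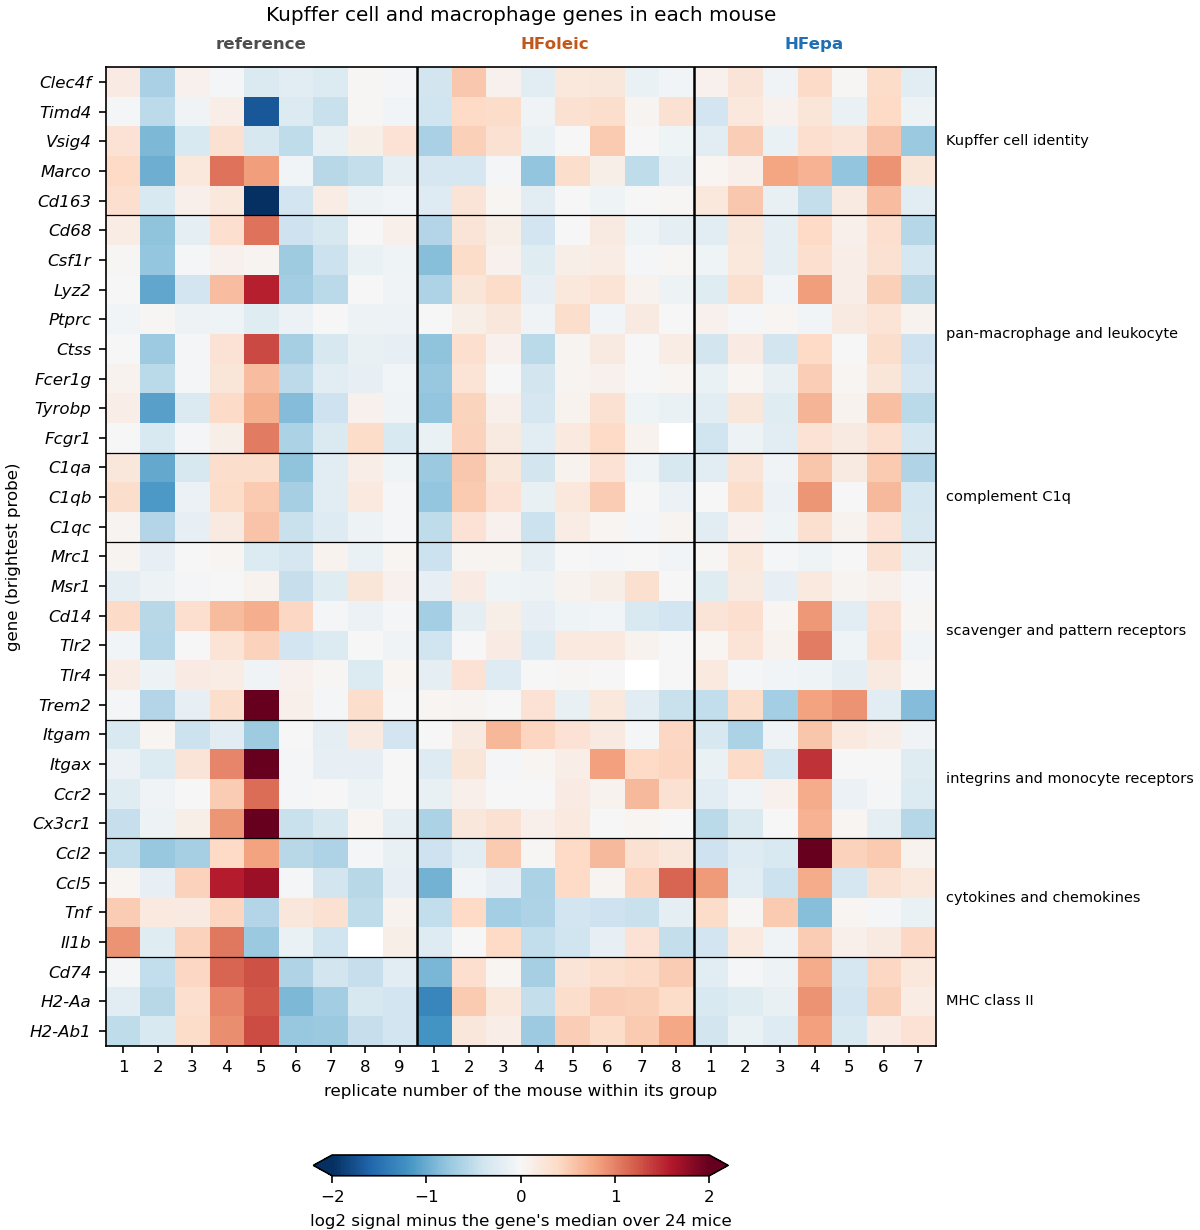
Each row is 1 of the 33 genes, read from its brightest probe, and each column is 1 mouse, numbered within its group. The colour is the log2 signal minus the median of that gene over the 24 mice, cut at 2 units, and white squares without tint in Fcgr1, Tlr4 and Il1b are the 3 empty values. Several genes were low or high together in some mice. By brightest probe, reference replicate 5 had the highest value for 15 genes and the lowest for 5.

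The sequences of a few probes matter for the values that follow, because the 1 call among the genes comes from a probe with a repeat. Each line below gives 30 bases of a probe of 60 bases as printed on the array, with its position in the mouse build mm9 (1-based). Capitals mark the longest run of a dinucleotide repeat in the probe. Pdcd4, Mcidas and Oprm1 are shown because their probes hold a run of C and A in alternation and lay near that of Itgam in mean signal. They were the nearest after such probes on 1 chromosome and on sequence without a plain chromosome name had been left out. Whether a probe lies in an exon or an untranslated region was not analysed here.
Itgam, brightest probe (chr7:135261755-135261814, plus strand): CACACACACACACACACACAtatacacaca
Itgam, other probe (chr7:135212140-135212199, plus strand): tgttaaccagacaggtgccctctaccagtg
Pdcd4 (chr19:54004105-54004164, plus strand): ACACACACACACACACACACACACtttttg
Mcidas (chr13:113790543-113790602, plus strand): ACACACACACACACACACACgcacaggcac
Oprm1 (chr10:3308332-3308391, minus strand): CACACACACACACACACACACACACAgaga
Ptprc, brightest probe (chr1:140020575-140020634, minus strand): cagatagatttTATATATAtgtgtatatat
Ptprc, second brightest probe (chr1:139960089-139960148, minus strand): tttcctatgcttaagaccatctttgacttg

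The first comparison asked what the obesogenic diet changed in the control lineage. Of the 33 genes, 1 was called in HFoleic against reference mice, Itgam, which was higher, and 0 were called lower (limma, Benjamini-Hochberg adjusted p under 0.05). Over all 32176 probes 6.59% were called, 3.69% higher and 2.90% lower. At an unadjusted p under 0.05 there were 5 of the 33 genes, Itgam, Ptprc, Timd4, Cd14 and Tnf, beside 20.0% of all probes. The median log2 difference of the 33 genes was 0.066, with 20 above 0, and that of all probes -0.00061. The differences ran from -0.48 to 0.49 with SEs of 0.060 to 0.43.

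The second comparison set HFepa against reference mice. None of the 33 genes was called by limma, 0 of 33, and the smallest adjusted p was 0.24. Over all probes 0.342% were called. At an unadjusted p under 0.05 there was 1 of the 33, Ptprc, beside 12.9% of all probes, and the methods' t-test called 0 as well. The median log2 difference was 0.11, with 25 of 33 above 0, against 0.0043 for all probes.

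The third comparison asked whether the lineages differed on the same diet. Limma called 0 of the 33 genes between HFepa and HFoleic, and 0% of all probes. Cd14 was the 1 gene with an unadjusted p under 0.05, beside 9.23% of all probes. The median log2 difference was 0.081, with 22 of 33 above 0. All of these comparisons share mice, so that their values are not independent of each other.

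Without reference replicate 5, the same counts of calls were found, 1, 0 and 0. Over all 32176 probes limma then called 2087, 65 and 0. The median difference of the 33 genes from reference then was 0.14 in HFoleic, with 24 of 33 above 0, and 0.17 in HFepa, with 28 above 0. That of all probes was -0.0021 and 0.0020. In bulk liver, more cells of a type and more RNA per cell cannot be told apart.

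**Figure D2:**
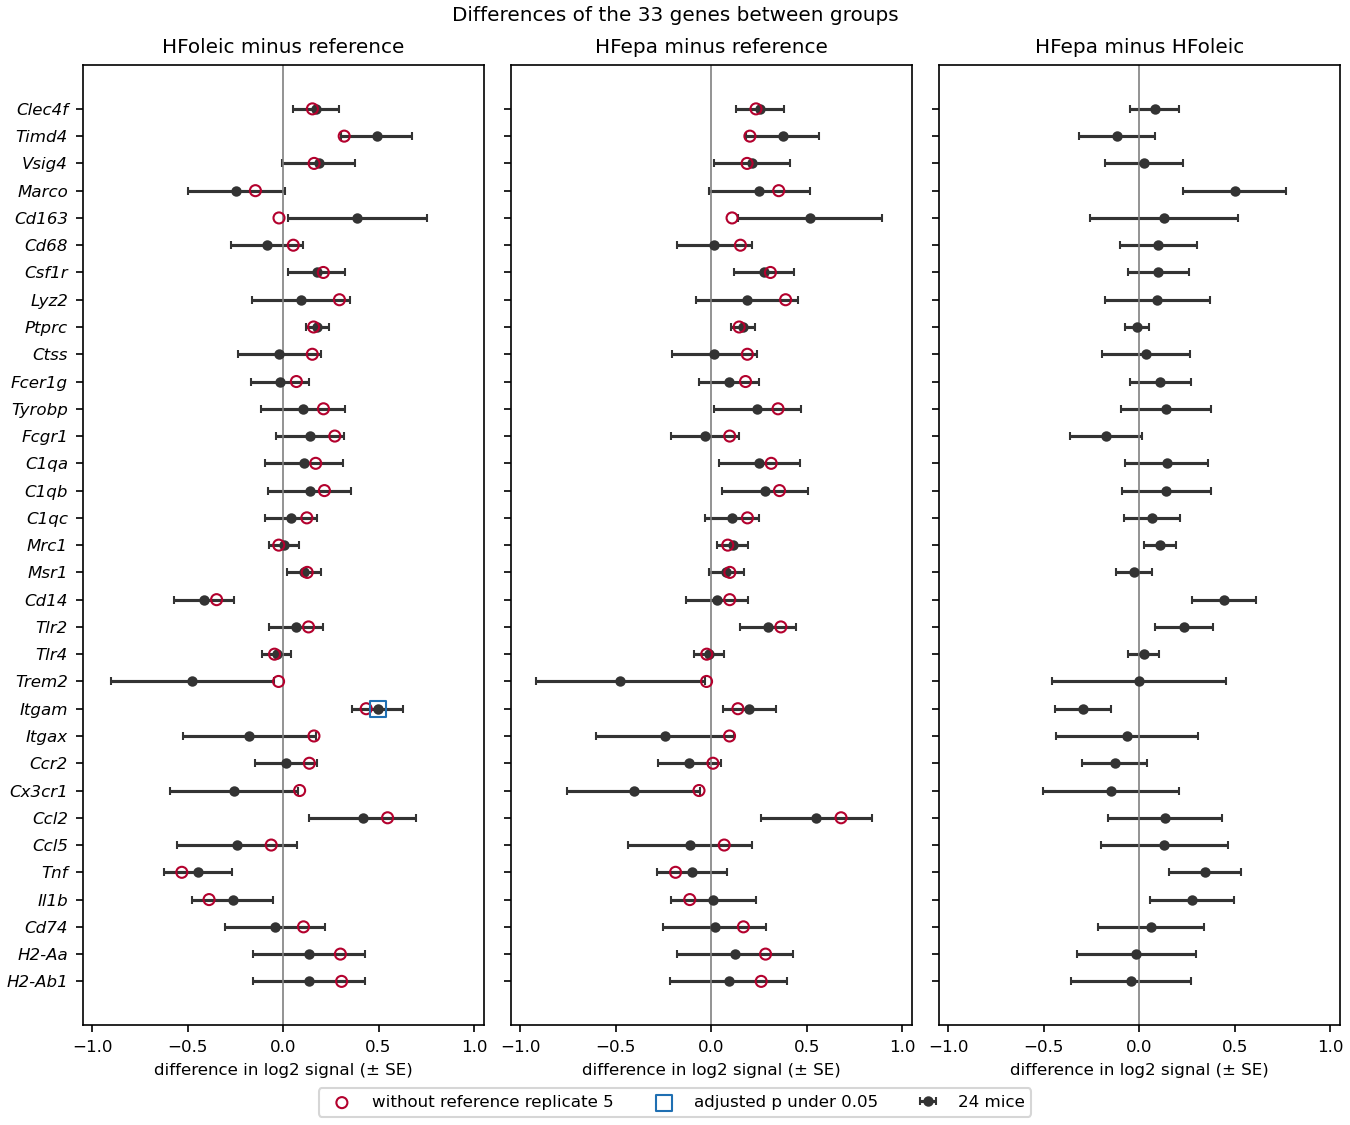
Differences in log2 signal between groups for the 33 genes, as filled points with SE bars over 24 mice. Open circles are the same differences without reference replicate 5, and the square marks the 1 call, Itgam. The differences from reference of Trem2, Itgax, Cx3cr1 and Cd163 moved most towards 0 or across it when that mouse was left out.

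Among the Kupffer cell genes, Clec4f is the lectin that Kupffer cells alone carry in the mouse liver. Clec4f had an SD of 0.25 in reference, 0.29 in HFoleic and 0.23 in HFepa mice. Its log2 signal had a lowest, median and highest value of 11.79, 12.40 and 12.60 in reference, 12.08, 12.46 and 12.98 in HFoleic and 12.21, 12.53 and 12.83 in HFepa mice. The groups overlapped over most of their range. It differed from reference by 0.17 ± 0.12 (SE; limma adjusted p = 0.47) in HFoleic and by 0.25 ± 0.13 (adjusted p = 0.40) in HFepa, and neither passed the test.

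Timd4, which binds phosphatidylserine on dying cells and marks the embryo-derived Kupffer cells, ran from 5.83 through a median of 7.45 to 7.65 in reference mice. It ran from 7.12 through 7.82 to 7.92 in HFoleic and from 7.14 through 7.61 to 7.92 in HFepa mice. Of the 8 HFoleic mice, 5 lay above all reference mice, and the lowest reference value was that of replicate 5. The difference was 0.49 ± 0.19 in HFoleic (limma adjusted p = 0.12) and 0.37 ± 0.19 in HFepa (adjusted p = 0.43). Without reference replicate 5 it was 0.32 (adjusted p = 0.13) and 0.20 (adjusted p = 0.57).

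Cd163, the scavenger receptor for haemoglobin bound to haptoglobin, gave a difference of 0.39 ± 0.36 in HFoleic and 0.52 ± 0.38 in HFepa, neither called. Without reference replicate 5 these were -0.022 and 0.11, since that mouse lay at 6.24 and the other 8 reference mice between 9.54 and 10.26. Vsig4, the complement receptor of the immunoglobulin family, differed by 0.19 ± 0.19 in HFoleic and 0.21 ± 0.20 in HFepa. Marco, a scavenger receptor with a collagen-like domain, ran from 9.88 through 10.79 to 11.94 in reference, from 10.07 through 10.59 to 11.20 in HFoleic and from 10.06 through 11.10 to 11.75 in HFepa mice. It had the largest difference of the 33 between the lineages, 0.50 ± 0.27, which limma did not call (adjusted p = 0.59). On the 3 slides that difference was 1.08, -0.30 and 0.86, so that its sign turned on slide 2. Adgre1, the F4/80 antigen that the older symbol Emr1 names, differed from reference by 0.19 ± 0.17 in HFoleic and 0.25 ± 0.18 in HFepa, with limma adjusted p of 0.61 and 0.62.

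**Figure D3:**
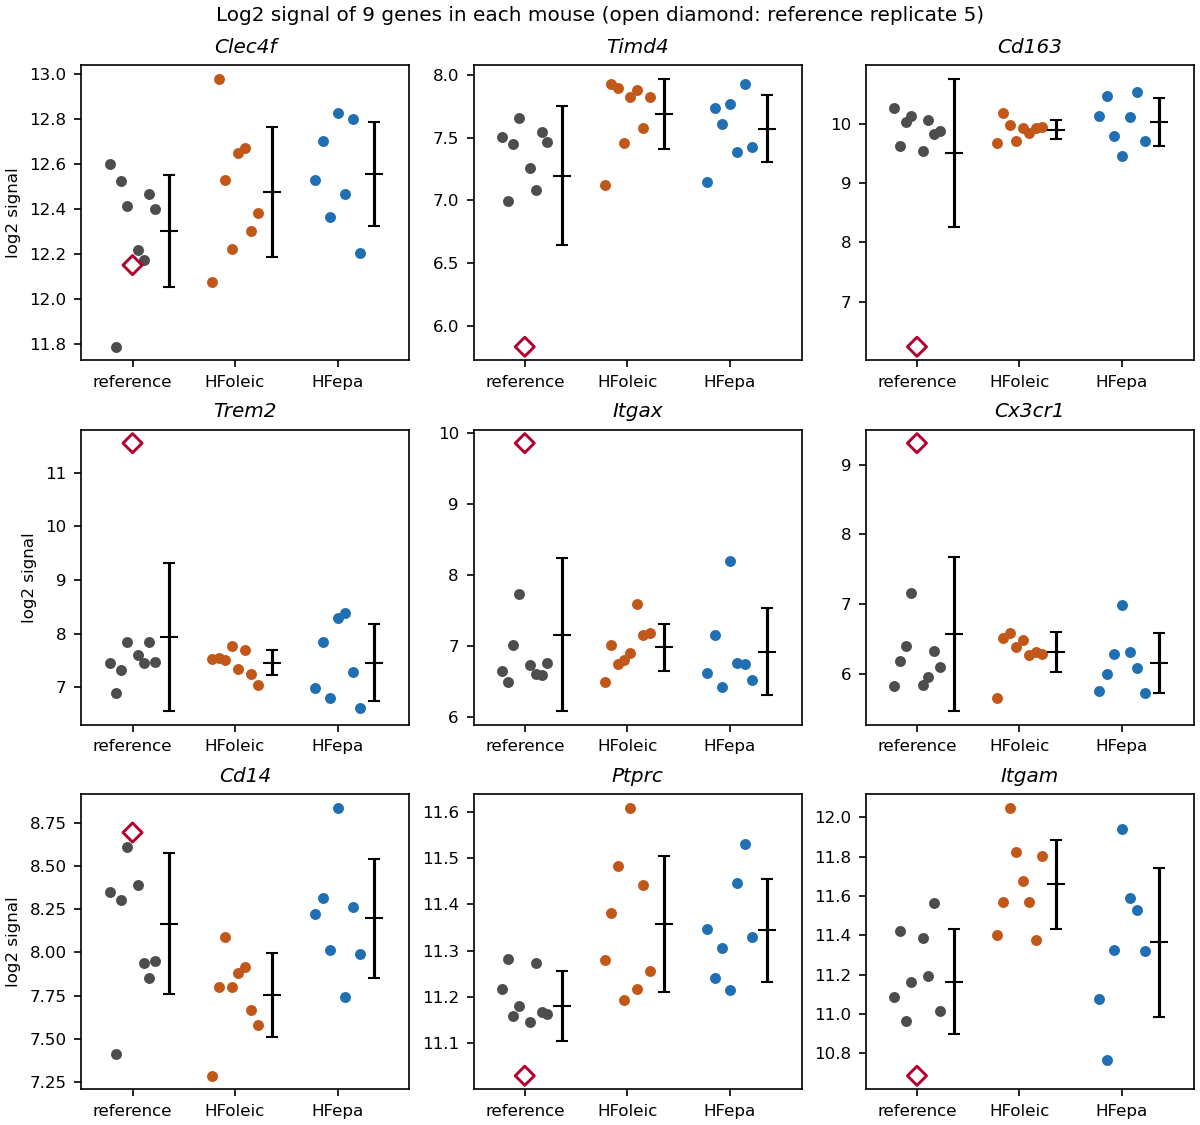
Log2 signal of 9 of the genes in each mouse, with mean and SD (bars) of the 9 reference, 8 HFoleic and 7 HFepa mice, each panel on its own scale. The open diamond is reference replicate 5, the highest mouse for Trem2, Itgax and Cx3cr1 and the lowest for Timd4 and Cd163. It was also the lowest for the brightest probes of Ptprc and Itgam, but not for their other probes.

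Of the 8 pan-macrophage and leukocyte genes, none was called. Csf1r, the receptor for the growth factor that keeps macrophages alive, ran from 12.16 through 12.84 to 13.01 in reference, from 12.08 through 12.99 to 13.31 in HFoleic and from 12.58 through 13.07 to 13.27 in HFepa mice. Its difference in HFoleic was 0.18 ± 0.15 (limma adjusted p = 0.58), and that of its other probe was -0.014. Cd68, Lyz2, Ctss, Fcer1g, Tyrobp and Fcgr1, which encode a lysosomal membrane protein, lysozyme, cathepsin S, 2 signalling adaptors and the high-affinity Fc receptor for IgG, differed by -0.083 to 0.14 in HFoleic and -0.034 to 0.24 in HFepa. Without reference replicate 5 all 8 genes of this group had a positive difference in both, with medians of 0.19 and 0.18, and still none was called.

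Ptprc (CD45), the phosphatase on all white blood cells, had the smallest SE of the 33 genes. Its brightest probe ran from 11.03 through 11.17 to 11.28 in reference, from 11.19 through 11.33 to 11.61 in HFoleic and from 11.21 through 11.33 to 11.53 in HFepa mice. It was 0.18 ± 0.060 higher in HFoleic and 0.16 ± 0.062 higher in HFepa, with limma adjusted p of 0.076 and 0.24. Its 3 other probes in the table gave 0.078, -0.12 and -0.062 in HFoleic, with adjusted p of 0.85, 0.69 and 0.85. In reference replicate 5 the brightest probe was the lowest of all 24 mice, whereas the 3 others were each the highest of all.

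The C1q genes C1qa, C1qb and C1qc encode the chains of the first component of complement, which macrophages of the liver make. Their differences were 0.11, 0.14 and 0.042 in HFoleic and 0.25, 0.28 and 0.11 in HFepa, with SEs of 0.14 to 0.23. None was called by limma.

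Among the scavenger and pattern receptors, Cd14, the co-receptor for lipopolysaccharide, had a negative difference in HFoleic mice. Its brightest probe ran from 7.41 through 8.30 to 8.69 in reference, from 7.29 through 7.80 to 8.09 in HFoleic and from 7.74 through 8.22 to 8.84 in HFepa mice. The difference in HFoleic was -0.41 ± 0.16 (limma adjusted p = 0.12), and that between HFepa and HFoleic was 0.44 ± 0.17 (adjusted p = 0.40). HFepa mice differed from reference by 0.031 ± 0.16. Its second brightest probe passed the test in HFoleic mice, at -0.48 (adjusted p = 0.039), and gave 0.52 between the lineages (adjusted p = 0.26). The call of that probe ended without reference replicate 5, at -0.42 (adjusted p = 0.069). On the 3 slides the brightest probe differed in HFoleic by -0.29, -0.50 and -0.46, and in the 2 rows by -0.44 and -0.37.

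Tlr2, the receptor for bacterial lipoproteins, ran from 7.19 through 7.70 to 8.23 in reference, from 7.36 through 7.80 to 7.95 in HFoleic and from 7.68 through 7.82 to 8.78 in HFepa mice. The difference was 0.30 ± 0.15 in HFepa (limma adjusted p = 0.40) and 0.17 without HFepa replicate 4, the highest mouse. Msr1, the class A scavenger receptor, ran from 6.30 through 6.75 to 7.00 in reference, from 6.60 through 6.79 to 7.09 in HFoleic and from 6.52 through 6.82 to 6.96 in HFepa mice. It differed by 0.11 ± 0.089 in HFoleic (limma adjusted p = 0.55). Mrc1, the mannose receptor, and Tlr4, the receptor for lipopolysaccharide, had differences between -0.034 and 0.11 in both diet groups.

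Trem2, a lipid receptor, and the integrin Itgax and receptor Cx3cr1 gave negative differences from reference that rested on reference replicate 5. Trem2 differed by -0.48 ± 0.43 in HFoleic and -0.48 ± 0.44 in HFepa, and by -0.024 and -0.025 without that mouse. Itgax differed by -0.18 ± 0.35 and -0.24 ± 0.36, and by 0.16 and 0.096 without it. Cx3cr1 differed by -0.26 ± 0.33 and -0.41 ± 0.35, and by 0.086 and -0.064 without it. Ccr2, the receptor by which monocytes leave the marrow, differed by 0.014 ± 0.16 and -0.11 ± 0.17.

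Itgam (CD11b), the integrin chain of monocytes and neutrophils, was the 1 gene called. Its brightest probe ran from 10.68 through 11.16 to 11.57 in reference, from 11.38 through 11.62 to 12.05 in HFoleic and from 10.76 through 11.33 to 11.94 in HFepa mice. HFoleic mice lay 0.49 ± 0.14 higher (limma adjusted p = 0.027), and HFepa mice 0.20 ± 0.14 higher (adjusted p = 0.60). The HFoleic difference was 0.43 (adjusted p = 0.049) without reference replicate 5, the lowest of all mice. On the 3 slides the HFoleic difference was 0.57, 0.58 and 0.36, and in the 2 rows 0.53 and 0.44. The other Itgam probe, shown above, ran from 5.75 to 6.46 in reference and from 5.82 to 6.34 in HFoleic mice and differed by 0.057 (adjusted p = 0.87). That probe lay near the floor, well above background in 8 of 9 reference, 7 of 8 HFoleic and 5 of 7 HFepa mice. Its small difference therefore says little about the RNA of the gene. The call ended without reference replicate 3 (adjusted p = 0.051) and without HFoleic replicates 3, 4 or 8 (adjusted p of 0.060, 0.053 and 0.055).

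The brightest Itgam probe begins with a run of 20 bases in which C and A alternate. The table held 41 probes with such a run of 16 bases or more, 40 of them for other names on the array. All 41 were higher in HFoleic than in reference mice, by 0.11 to 0.60 with a median of 0.47, and 35 were called. In HFepa all 41 were higher by 0.054 to 0.26, median 0.20, and 0 were called by limma. The 71 probes with a run of 16 bases or more of T and G in alternation were all lower in HFoleic, with a median of -0.61, and all 71 were called. The 32064 other probes had a median of -0.00046. The Itgam difference of 0.49 thus lay inside the range of the probes with the same repeat.

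Within single mice the brightest Itgam probe moved with these probes. Each value was taken minus the mean of its probe over the 24 mice. The Itgam probe then ranged over 1.37 log2 units, and after subtraction of the median of the 40 other probes in the same mouse it ranged over 0.29. What was left had a mean ± SD of -0.0099 ± 0.070 over the 9 reference mice, 0.022 ± 0.060 over the 8 HFoleic mice and -0.010 ± 0.065 over the 7 HFepa mice. The other Itgam probe lay at -0.031 ± 0.27, 0.026 ± 0.15 and 0.011 ± 0.39 in the same groups. What moves the probes with these repeats was not tested.

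**Figure D4:**
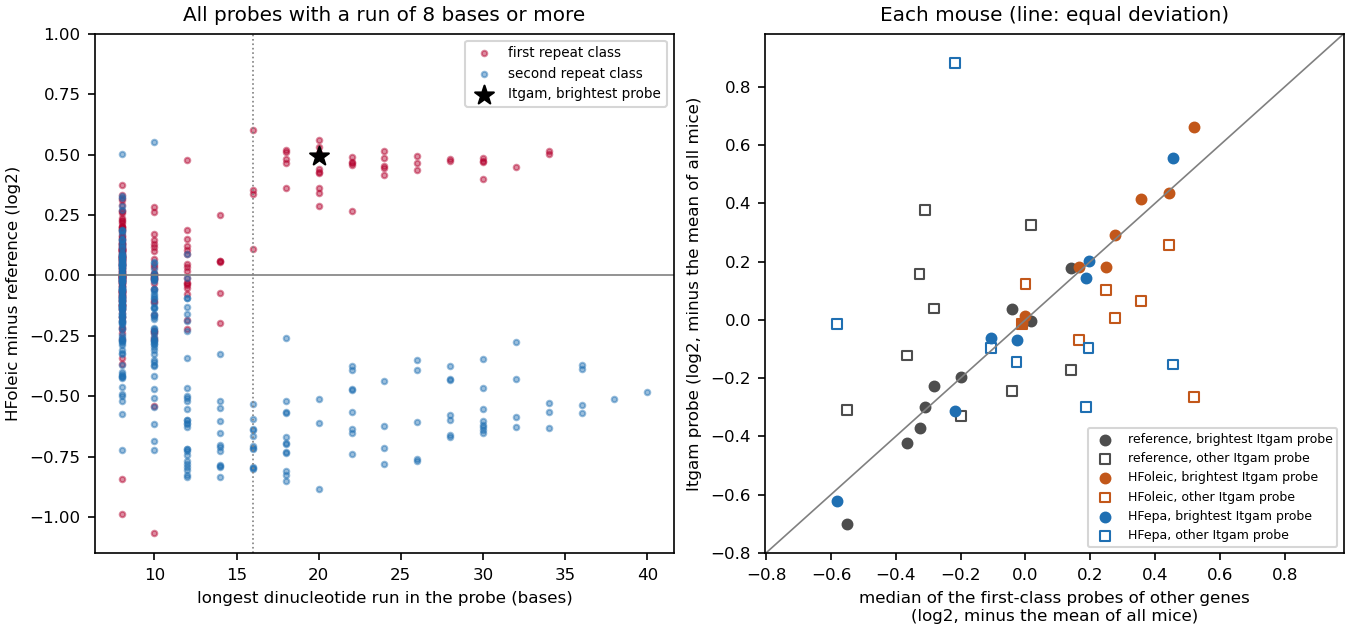
On the left, HFoleic minus reference (log2) against the longest dinucleotide run of each probe with a run of 8 bases or more, where the first class has C and A in alternation and the second T and G. The star is the brightest Itgam probe at 0.49, inside the first class, whose 41 probes to the right of the dotted line at 16 bases were all above 0. On the right, each mouse's deviation of the brightest Itgam probe (filled) and the other Itgam probe (open) against the median of the 40 first-class probes of other names. Only the filled points follow the line of equal deviation, and the other Itgam probe lay near the floor.

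Of the 4 cytokine genes none was called. Ccl2, the chemokine that draws monocytes through Ccr2, ran from 7.33 through 7.60 to 8.90 in reference, from 7.68 through 8.36 to 8.73 in HFoleic and from 7.67 through 8.17 to 10.24 in HFepa mice. The difference was 0.42 ± 0.28 in HFoleic (limma adjusted p = 0.44) and 0.55 ± 0.29 in HFepa (adjusted p = 0.44), and the latter was 0.24 without HFepa replicate 4. Tnf, the macrophage cytokine, ran from 7.16 through 7.95 to 8.25 in reference, from 7.07 through 7.31 to 8.15 in HFoleic and from 6.89 through 7.77 to 8.26 in HFepa mice. It differed by -0.45 ± 0.18 in HFoleic (limma adjusted p = 0.14) and by 0.34 ± 0.19 between the lineages (adjusted p = 0.60). Il1b, interleukin 1 beta, ran from 7.53 through 8.26 to 9.32 in reference, from 7.78 through 8.06 to 8.67 in HFoleic and from 7.89 through 8.45 to 8.78 in HFepa mice. Its difference in HFoleic was -0.26 ± 0.21 (limma adjusted p = 0.54), and on the 3 slides 0.51, -0.74 and -0.87, so that the sign turned on slide 1. Ccl5, a chemokine for T cells and monocytes, differed by -0.24 ± 0.31 in HFoleic and -0.11 ± 0.32 in HFepa.

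Cd74, H2-Aa and H2-Ab1, the invariant chain and the 2 chains of an MHC class II molecule, differed by -0.044 to 0.14 in HFoleic and 0.018 to 0.12 in HFepa. Their spread between mice was wide. H2-Ab1 ran from 11.80 through 12.18 to 13.87 in reference, from 11.37 through 12.86 to 13.33 in HFoleic and from 12.19 through 12.43 to 13.39 in HFepa mice. Without reference replicate 5 all 3 differences were positive, with medians of 0.30 and 0.26, and none was called.

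Each slide held mice of every group. Of the 10 genes with the smallest p in HFoleic against reference, 7 had the same sign on all 3 slides, and Clec4f, Il1b and Csf1r did not. Of the 5 in HFepa against reference all 5 did, but the sizes were uneven. Timd4 differed by 1.13 on slide 1, which held reference replicate 5, and by 0.016 and 0.047 on the others. Clec4f differed by 0.55, 0.16 and 0.048 on the 3 slides. Ptprc, Tlr2 and Ccl2 differed by 0.10 or more on each slide. Of the 5 between the lineages only Cd14 kept its sign on all 3 slides, and Itgam, Marco, Tnf and Tlr2 turned on 1 slide each. All of these genes were picked by their p in the same mice, which favours a shared sign. The counts therefore do not measure reproducibility, and the share over all probes was not analysed here.

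Several of the genes were low or high together in some mice, and the correlation of the genes within groups was not tested. Reference replicate 2 had the lowest signal of all mice for 11 of the 33 genes and HFoleic replicate 1 for 10, while HFepa replicate 4 had the highest for 5 and HFoleic replicate 2 for 4. The median deviation of the 33 genes from their own medians ran from -0.54 to 0.62 in reference, -0.49 to 0.25 in HFoleic and -0.21 to 0.55 in HFepa mice. The spread between mice of 1 group was thus larger than the median difference between groups.

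Reference replicate 5 lay above the other 8 reference mice for some genes and below them for others. Trem2 was at 11.55 against 6.90 to 7.85, Itgax at 9.86 against 6.49 to 7.73, and Cx3cr1 at 9.31 against 5.83 to 7.17. These are 16.9, 9.04 and 8.96 times the median of the other 8. Cd163 was at 6.24 against 9.54 to 10.26 and Timd4 at 5.83 against 7.00 to 7.65, or 13.2 and 3.08 times below the median. Clec4f at 12.15 and Vsig4 at 9.11 lay inside the range of the others, 11.79 to 12.60 and 8.54 to 9.74. Marco at 11.69 also lay inside their range, 9.88 to 11.94, and was 0.95 above their median. Of 12 further Kupffer cell genes 8 lay above the median of those mice, and the list ran from -1.36 to 0.89 around it. Ctss at 13.96, Lyz2 at 14.70 and Cd68 at 11.51 were the highest of all 24 mice, and so were all 3 MHC class II genes. Reference replicate 4 lay close for the latter. Cd74 was at 12.91 there against 13.02 in replicate 5, H2-Aa at 10.14 against 10.41 and H2-Ab1 at 13.49 against 13.87.

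Further probes of Cd163, Lyz2, Cd68 and H2-Ab1 went the same way in that mouse. The second probe of Cd163 was the lowest of all 24 mice, and the second of Lyz2, both others of Cd68 and all 4 of H2-Ab1 were the highest. Some of these probes lay near the floor. The second Cd163 probe was well above background in 4 of the 9 reference mice, and the dimmest Cd68 probe in 6. Trem2 has 1 probe on the array, so its value rests on that probe alone. The second Csf1r probe went otherwise and was the lowest of all 24 mice, with a difference of -0.81 from the median of the other 8, while the brightest Csf1r probe lay 0.17 above it. These values describe 1 mouse, not a group.

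Of the 7 genes of the list of lipid-associated macrophages that had values in the table, 6 were highest of all 24 mice in reference replicate 5. Spp1 (osteopontin) was at 13.26 against 10.13 to 11.21 in the other reference mice, Lpl (lipoprotein lipase) at 12.74 against 8.88 to 10.78, Cd63 at 13.52 against 10.19 to 11.80 and Lgals3 (galectin 3) at 12.12 against 9.62 to 10.42. Gpnmb, a glycoprotein of lipid-laden macrophages, had no values in the table. Rebuilt from the scanner signals it was at 9.56 in that mouse and at 6.13 or lower in every other mouse measured, and it was well above background in only 4 of the 24 mice. Of 30 further genes of the phagocyte machinery 28 lay above the median of the other reference mice, with Ms4a7 at 10.33 against 6.75 to 8.10.

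Markers of other cells also stood apart in that mouse, in both directions. All 5 cholangiocyte markers lay above the median of the other reference mice, by 0.85 to 2.67, and Spp1 is on that list too. The mean deviation of this list from the medians of its genes was 1.61 in that mouse, -0.33 to 0.38 in the other reference mice, -0.11 to 0.18 in HFoleic and -0.12 to 0.32 in HFepa mice. Of 6 markers of hepatic stellate cells, 5 lay above that median and 3 were the highest of all 24 mice, with Dcn (decorin) 1.16 above, whereas Ecm1 was the lowest of all at -0.86. Of 7 markers of sinusoidal endothelial cells, 1 lay above and 3 were the lowest of all, with a range of -0.49 to 0.74. The 4 adipocyte genes ran from -0.51 for Lep (leptin), the lowest of all mice, to 2.89 for Adipoq (adiponectin), which was at 8.60 while another reference mouse reached 9.71. The hepatocyte marker Alb was at 18.24 against 18.18 to 18.35, whereas Cyp2e1 was at 17.00 against 17.85 to 17.98. Since quantile normalisation keeps Alb even, its value does not measure the hepatocyte content of that mouse. The T cell markers ran from -0.63 to 0.79 around the median of the others and the neutrophil markers from -0.47 to 0.55. The part of these cells in the macrophage genes of that mouse was not tested.

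**Figure D5:**
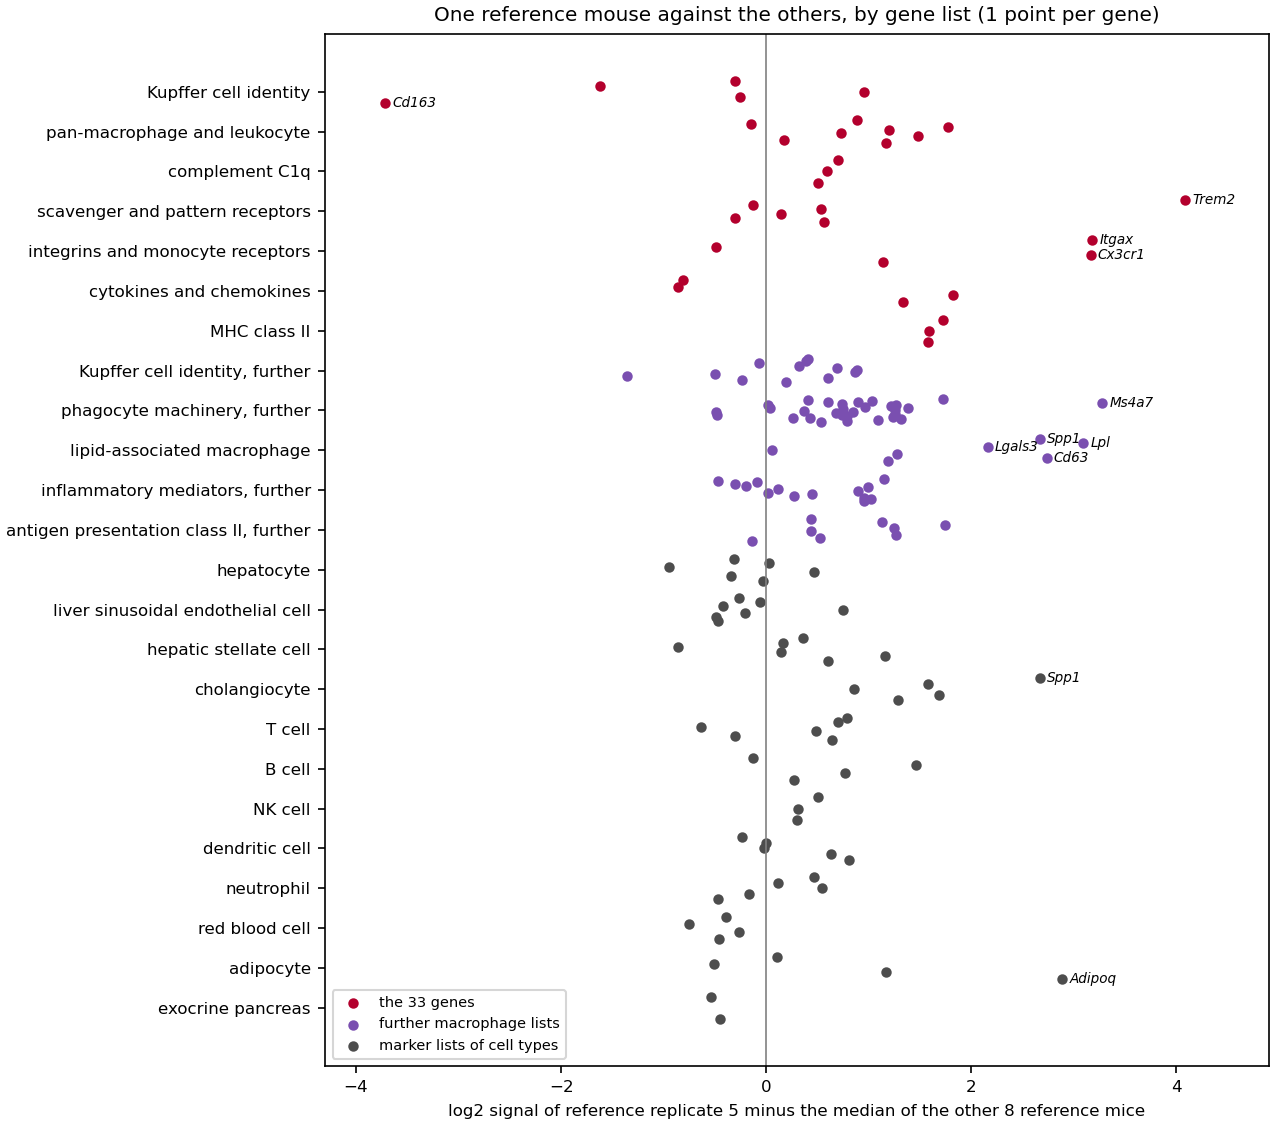
Log2 signal of reference replicate 5 minus the median of the other 8 reference mice, 1 point per gene, by gene list. Points beyond 2 units are named. Trem2 lies at 4.08 and Cd163 at -3.72, and the lists of lipid-associated macrophages, MHC class II and cholangiocytes lie wholly above 0.

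In HFoleic against reference, where 6.59% of all probes were called, limma called 0 of 12 further Kupffer cell genes, 1 of 30 of the phagocyte machinery, 0 of 7 of lipid-associated macrophages, 1 of 14 inflammatory mediators and 0 of 8 of MHC class II presentation, all higher. Their medians were 0.060, 0.010, -0.40, 0.019 and 0.083. When reference replicate 5 was left out they were 0.090, 0.12, -0.25, 0.0098 and 0.20. In the other comparisons 0 of these genes was called by limma, where 0.342% and 0% of all probes were.

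Ctsc, cathepsin C, which activates proteases of myeloid cells, ran from 10.67 through 11.13 to 11.64 in reference, from 11.25 through 11.71 to 12.07 in HFoleic and from 11.25 through 11.60 to 11.90 in HFepa mice. It was 0.53 ± 0.14 higher in HFoleic (limma adjusted p = 0.021, or a difference of 0.47 with adjusted p = 0.038 without reference replicate 5, the lowest of all mice) and 0.49 ± 0.14 higher in HFepa (adjusted p = 0.12). Cxcl1, a chemokine for neutrophils that hepatocytes also make, ran from 7.18 through 8.09 to 9.64 in reference, from 8.60 through 9.44 to 10.96 in HFoleic and from 7.80 through 8.72 to 10.34 in HFepa mice. It was 1.50 ± 0.37 higher in HFoleic (limma adjusted p = 0.014, or 1.53 with adjusted p = 0.018 without reference replicate 5) and 0.69 ± 0.38 higher in HFepa (adjusted p = 0.47). The groups overlapped for both genes. Of 5 neutrophil markers in the table all differed by more than 0 in HFoleic, with a median of 0.21, and 0 were called.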

How the data were processed

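The authors deposited the scanner output of each array, and per the file headers its median and mean signal are raw intensities, while its processed signal is an intensity corrected for background by the scanner software. The submitters' processing notes name Agilent Feature Extraction (10.10.1.1) and limma. The deposited marks of outlier and of bright spots are 0 or 1. A deposited table holds log2 values of the median signal for 32176 probes, which the authors had filtered and then quantile normalized, with 2550 empty values. Against the scanner's log2 signal each of its columns correlated at 0.9997 or above. The filter is not stated.

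The deposited log2 values were fitted with limma (version 3.58.1, R 4.3.3) in a group-means model over 24 arrays, with moderated, two-sided contrasts and Benjamini-Hochberg adjustment over all probes within a comparison. Where a value is empty that mouse is left out for that probe. A gene was read from the probe with the highest mean. The fit was tested on simulated data. Python 3.11.15, pandas 2.3.3, numpy 2.4.6 and matplotlib 3.10.9 were used. Gene names and mm9 positions are those of the scanner files, and Adgre1 was matched through a RefSeq table. Pairwise t-tests are the methods' t-test.

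Values are given for genes called in any comparison, for the 10 smallest unadjusted p in HFoleic against reference, for the 5 smallest in either other comparison, and for those with reference replicate 5 as an outlier. Repeat classes, the second Cd14 and Ptprc probes and the other genes named were chosen after their values were seen. The genes and lists were chosen with earlier results of these data known. Lists fixed for this purpose were 5 further macrophage lists and markers of 12 cell types. Arrays lay on 3 slides of 8 in 2 rows, with every group on each slide and in each row. Each array is 1 mouse, and the number of arrays limits the precision.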

Additional observations from a re-analysis of the deposited data

Results flagged for a closer look

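Dixon's 95% limit on the gap of the highest or lowest mouse was applied to all 33 genes in each of the 3 groups, 99 in all, and 12 passed it, where chance passes about 1 of 20. Genes of 1 mouse are not independent of each other. Reference replicate 5 made up 6 of the 12. Its gap to the nearest mouse, as a share of the range of the group, was 0.80 for Trem2, 0.63 for Itgax, 0.62 for Cx3cr1 and 0.51 for Ctss, where it was highest, and 0.82 for Cd163 and 0.64 for Timd4, where it was lowest. HFepa replicate 4 was highest with 0.65 for Ccr2, 0.63 for Ccl2, 0.62 for Tlr2 and 0.59 for Itgax. HFoleic replicate 1 was lowest for Cx3cr1 with 0.67, and HFoleic replicate 2 was highest for Tnf with 0.55.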

How the results depend on the processing

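Probes called in HFoleic against reference were 1352 gene means with the mean of the probes of a gene, and 1558 to 2955 without 1 mouse. In HFepa against reference the 110 became 0 with no filter on dim probes and 0 by the methods' t-test, 42 with the processed signal, 29 with gene means, 1 without both reference replicates 4 and 5, and 0 to 467 without 1 mouse (0 without reference replicate 2 or HFepa replicate 2 or 6, 467 without reference replicate 8). Between the lineages, 2 were called among probes well above background on every array and 0 to 12 without 1 mouse. The 1 gene called in HFoleic became 2 with the processed signal and with normexp (Ptprc added, adjusted p of 0.042 and 0.047), 0 with gene means, with the replicate block and without both reference replicates 4 and 5, and 0 to 2 without 1 mouse, where Cd14 was added without reference replicate 2 (adjusted p = 0.035). With the second brightest probe it was 1, Cd14 and not Itgam. The adjusted p of Itgam ran from 0.012 to 0.87 over the alternatives. The Csf1r difference in HFoleic reversed to -0.014 with its second probe. Median differences moved under all alternatives by less than the SD between mice, 0.30. That SD is larger than the median differences themselves, so that this does not show them to be stable. The median differences ran without 1 mouse from -0.010 to 0.14, 0.048 to 0.17 and -0.00066 to 0.14. Without both reference replicates 4 and 5, a choice made after seeing the data like the second probe, they were 0.21 and 0.24 from reference.

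Deviations of mice with equal replicate numbers correlated at -0.28 to 0.34 over 22 pairs. Unequal numbers were not set beside them, so that whether the numbers pair the mice was not tested. The authors matched the mice of the lineages on the high-fat diet for body weight, without tying this to replicate numbers. With the replicate block 1668, 84 and 0 probes were called, and the Itgam difference was 0.48 (adjusted p = 0.057).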
